A study of Homo sapiens with 10 samples.

Results

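The genes described here are 41 genes of DNA repair and damage signalling, of 62710 entries in a table of read counts from H441 cells. H441 is an established human lung adenocarcinoma line. The genes were found by their symbols, and all 41 had enough reads to be tested. The list was chosen by function with earlier results of these data in view, and PRKDC was selected on its measured read counts, which are lower both where TET1 was knocked out and where TET1 was added. PRKDC is therefore described by its levels and effect sizes, and no p-value is given for it. Its call in the fit follows from that selection. The call is still included in the counts of members that passed in KO and in OE, under every setting. The other members are given with the calls of a fit over all 15832 tested genes, as a description of these libraries.

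RNA was sequenced in 10 libraries of H441 grown in RPMI with 10% fetal bovine serum. The 3 wild-type libraries (WT 1 to 3) are unmodified cells. In the 3 knockout libraries (KO 1 to 3), TET1 had been disrupted in H441-WT cells with CRISPR-Cas9, and the labels do not say whether they came from 1 clone. In the 2 overexpression libraries (OE 1 and 2) the cells were transiently transfected with a plasmid for full-length human TET1, and the share of cells that took it up was not measured here. The remaining 2 libraries (Lipo 2 and 3) carry the title word Lipo, which the labels do not explain, and are otherwise labelled as untreated wild type. They served as the control for OE. TET1 oxidises the methyl group of methylated cytosines, and base excision repair removes the products. The labels do not say whether the replicates were separate cultures, so the p-values measure only the spread between these libraries, which may be technical. Each test in the main fit shared 1 error estimate over all 10 libraries. The p-values and standard errors of OE against Lipo therefore also carry the spread of the WT and KO libraries.

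Cells mend DNA damage along several routes. Double-strand breaks are sensed by the kinases ATM and DNA-PK, and single-stranded DNA at stalled forks by ATR. Breaks are then joined directly by Ku, DNA-PK and DNA ligase IV, or copied from the sister chromatid by homologous recombination with BRCA1 and BRCA2. The Fanconi anaemia proteins open interstrand crosslinks, mismatch repair corrects replication errors, nucleotide excision repair cuts out bulky lesions such as those of ultraviolet light, and base excision repair replaces single damaged bases. In lung adenocarcinoma cells these routes are studied because platinum drugs and radiation act through DNA damage.

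Levels are CPM, read counts relative to the TMM-scaled library size, and a mean is given with its SD over the n libraries of a group. Total counts lay between 20994462 and 25981097 per library, and the 41 genes took 0.379% ± 0.0188 of the counts in WT and 0.379% ± 0.0325 in KO (SD, n = 3 each). In Lipo and OE they took 0.367% ± 0.00203 and 0.309% ± 0.00345 (SD, n = 2 each). TET1 had 2, 7 and 0 reads in WT 1 to 3, 4, 0 and 8 in KO 1 to 3, and 0 and 1 in Lipo 2 and 3, so its level gave no check of the knockout. OE 1 and 2 had 17883 and 20805 TET1 reads. WT 1 stood apart from WT 2 and WT 3, with a chi-square per gene of 42.8 and 46.6 against 6.36 between WT 2 and WT 3. Among the KO libraries it was between 39.7 and 65.4 for each pair, and it was 6.16 between the Lipo and 4.83 between the OE libraries. Of 10 epithelial and lung adenocarcinoma marker genes none was at 0 in all libraries, and their summed level lay between 10929 and 15856 CPM. By the edgeR test SFTPB, CDH1 and KRT7 were lower in KO (log2 -1.97, -0.75 and -0.46) and 0 were higher, or 30% beside 12.6% of all genes. In OE, SFTPB was lower (-1.35) and KRT7 higher (0.63), or 20% beside 12.3%. In Lipo against WT, SFTPB was lower (-1.36), or 10% beside 3.7%. The part of these changes in the results was not tested. The 5 leukocyte markers summed to at most 1.25 CPM in any library. Of 5 fibroblast markers, DCN and PDGFRB were at 0 in every library and COL1A2 in all but KO 3, while COL1A1 and LUM fell in KO and rose in OE (edgeR adjusted p between 5.93e-06 and 0.0243). Their summed level was 177 to 289 CPM in WT, 70.9 to 77.7 in KO, 169 to 183 in Lipo and 343 to 351 in OE, which moves with both comparisons, and its part in the results was not tested. The 4 endothelial markers summed to 82.6 to 117 CPM, nearly all of it KDR, and passed in no contrast.

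The upstream sequence of the genes bears on TET1 because the enzyme acts where cytosine is followed by guanine (CpG). RefSeq windows from 250 bases before to 50 bases after a start site (GRCh38.p14) were matched for 34 of the 41 genes. They held a median of 26 CpG, from 5 in ERCC1 to 41 in FANCC, beside a median of 14 over all 27305 windows. For a gene with several windows only the first listed was used, which need not be its main start site. ERCC1 has 3 listed windows. GGGCGG, the core of the GC box bound by SP1, stood in 76.5% of the members' windows and in 44.6% of all windows, on either strand. CCAAT stood in 58.8% against 35.7%. TTCCCGC, a core recognised by the cell cycle factor E2F, stood in 23.5% against 6.56%, and its letters can overlap those of GGGCGG. The set of all windows includes genes with too few reads to be tested here, whereas every member was tested. Shares among tested genes alone were not computed, so these differences are not read as a trait of repair genes. The upstream stretches of UNG and FANCD2, a base excision and a crosslink repair gene, are shown because their changes in KO and in OE differed and their stretch lies outside annotated untranslated regions. CpG is in capitals.
UNG: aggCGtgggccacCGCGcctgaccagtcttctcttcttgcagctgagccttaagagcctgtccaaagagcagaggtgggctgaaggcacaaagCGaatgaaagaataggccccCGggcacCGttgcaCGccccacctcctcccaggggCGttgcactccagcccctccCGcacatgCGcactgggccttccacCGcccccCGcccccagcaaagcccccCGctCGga
FANCD2: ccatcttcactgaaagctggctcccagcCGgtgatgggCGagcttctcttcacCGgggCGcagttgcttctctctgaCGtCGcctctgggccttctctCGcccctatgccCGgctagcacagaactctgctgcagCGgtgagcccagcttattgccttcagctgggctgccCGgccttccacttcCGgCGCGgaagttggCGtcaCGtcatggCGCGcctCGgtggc
The UNG stretch is chr12:109097347-109097573 on the plus strand, with 14 CpG and 2 copies of GGGCGG counted over both strands. The FANCD2 stretch is chr3:10026187-10026413 on the plus strand, with 18 CpG and 0 copies of GGGCGG. Neither stretch held CCAAT or TTCCCGC. Both stretches stop before the start site, while the windows counted above reach 50 bases after it. On either strand, the whole UNG window did hold CCAAT, and the whole FANCD2 window held GGGCGG and TTCCCGC. DNA methylation was not measured in these libraries.

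In KO, PRKDC stood about as far below its control as in OE, while ATM and MRE11 were lower in OE, LIG4 was lower in KO, and UNG was higher in KO. Counted at an adjusted p under 0.05, 1 member was higher and 2 were lower in KO than in WT, PRKDC included, which is 7.32% of the 41 beside 12.6% of all genes tested (5.13% higher and 7.45% lower). In OE, 0 were higher and 3 lower than in Lipo, PRKDC again included, which is also 7.32%, beside 12.3% of all genes (6.79% higher and 5.53% lower). The median log2 fold change of the 41 was 0.06 in KO and -0.20 in OE, and over all genes it was 0.0034 and -0.0071. Since PRKDC is counted and the list was chosen with these contrasts known, nothing is read from the shares. Leaving out WT 1 raised the KO count from 3 to 5, beside 14.6% of all genes, with APEX1 and SMUG1 added as higher, and leaving out KO 3 raised the OE count to 6, beside 17% of all genes. In a fit of OE and Lipo alone 17 members passed, beside 39% of all genes. With WT 1 and KO 1 both left out the counts were 7 and 11, beside 18.6% and 22.2% of all genes, and LIG4 and UNG in KO and ATM and MRE11 in OE were among them.

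**Figure D1:**
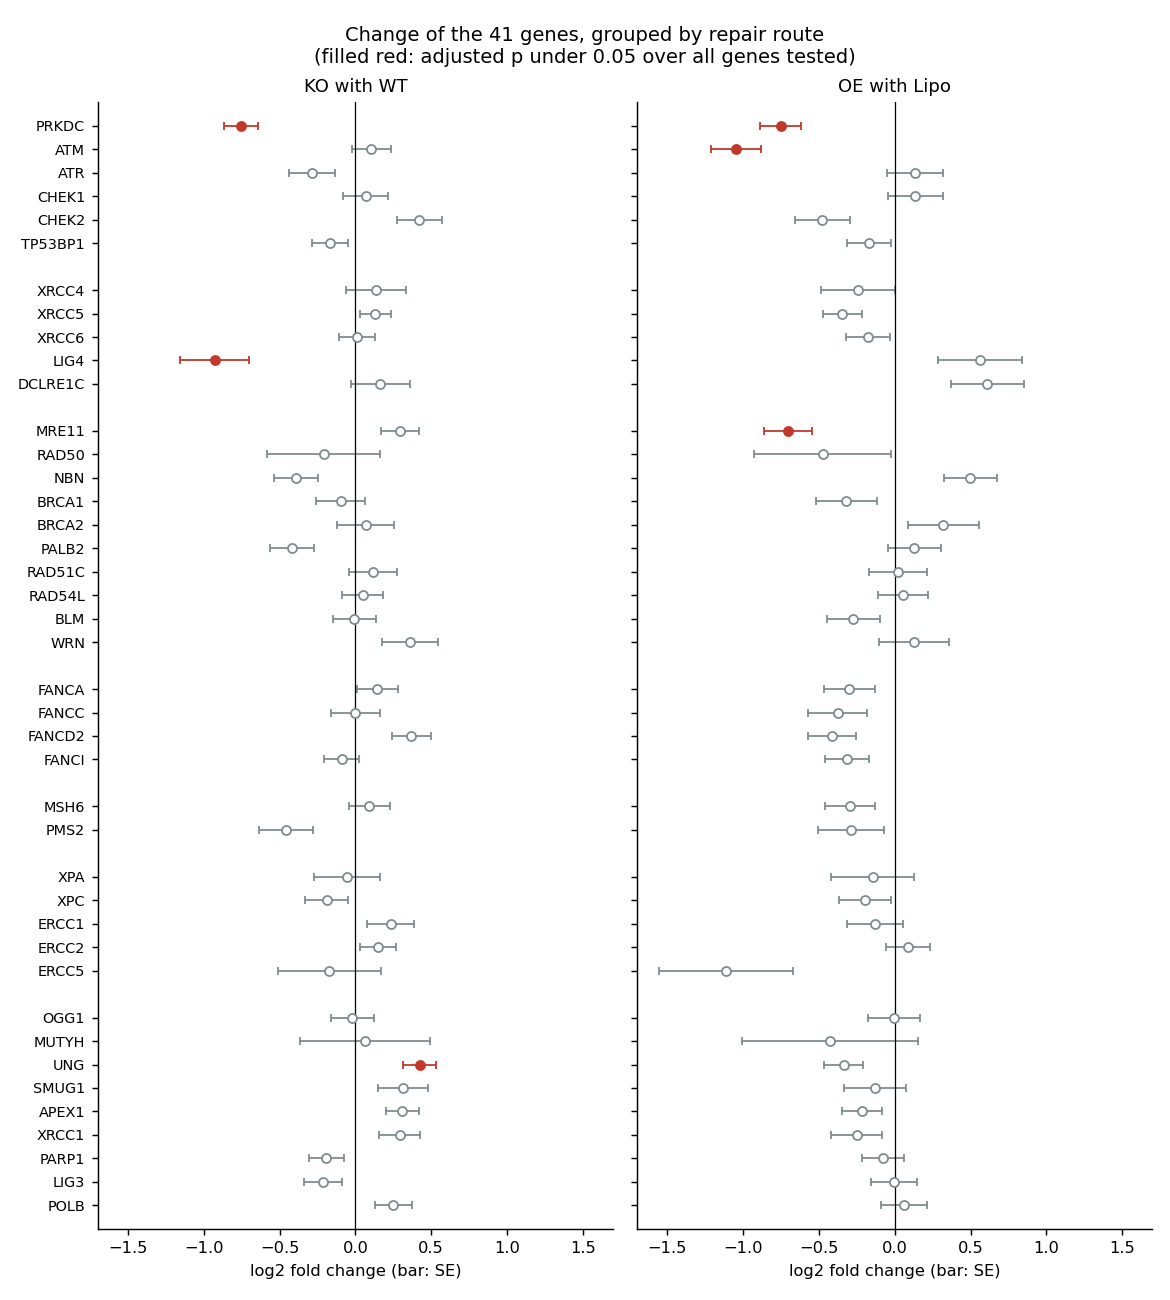
Log2 fold change (horizontal axis) of each of the 41 genes in KO against WT and in OE against Lipo, by repair route from top to bottom. Points are fitted values, bars their standard error, and filled red points have an adjusted p under 0.05 over all genes tested. PRKDC stands at -0.75 in both panels and is filled by the same rule. Its value and its fill are part of how the list was chosen and are not read as a test. LIG4 has the lowest value in KO at -0.93.

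PRKDC encodes the catalytic subunit of DNA-PK, the kinase that holds broken ends for joining. The gene (ENSG00000253729) lies on the minus strand at chr8:47773108-47960183 (GRCh38). Its level was 439, 442 and 454 CPM in WT 1 to 3, 440.6 and 470.1 in Lipo 2 and 3, 273, 291 and 227 in KO 1 to 3, and 270.2 and 270.1 in OE 1 and 2. Every KO and OE library was below every WT and Lipo library, and the OE values lay within the KO range. PRKDC was 1.69-fold lower in KO than in WT (log2 -0.75, SE 0.11) and 1.69-fold lower in OE than in Lipo (log2 -0.75, SE 0.14). The difference between both effects was -0.0012 on the log2 scale (SE 0.18). Lipo and WT differed by 0.03 (SE 0.13). Across the alternative settings, the log2 value ran from -0.83 to -0.66 in KO and from -0.81 to -0.72 in OE. In bulk RNA, fewer cells of a kind and less RNA per cell cannot be told apart.

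ATM, the kinase at the head of the double-strand break response (ENSG00000149311, chr11:108222484-108369102, plus strand), had the lowest level per exon length of the damage kinases, 1.47 CPM per kb over all libraries against 23.2 for PRKDC. It stood at 15.4 and 17.8 CPM in OE 1 and 2 and at 35.1 and 33.6 in Lipo 2 and 3. The WT libraries had 37.4, 39.6 and 43.4 CPM, and the KO libraries 43.2, 47.5 and 38.7. OE stood below every other library, and KO overlapped WT. ATM was 2.07-fold lower in OE than in Lipo (log2 -1.05, SE 0.17, edgeR adjusted p = 0.000679) and stayed past the threshold in each of 21 alternatives. KO differed from WT by 0.11 (adjusted p = 0.673), and the 2 effects differed by 1.15 (SE 0.21, adjusted p = 0.00165).

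CHEK2, the checkpoint kinase that ATM activates (chr22:28687743-28742422, minus strand), was at 46.1, 36.2 and 34.6 CPM in KO against 27.8, 30.2 and 29.4 in WT, and at 25.4 and 20.2 in OE against 33.8 and 29.8 in Lipo. KO stood above WT and OE below Lipo with no overlap. Neither difference passed alone (log2 0.42, adjusted p = 0.078, and log2 -0.48, adjusted p = 0.105), but the difference between the effects did (0.90, SE 0.23, adjusted p = 0.0171). Leaving out Lipo 2 or OE 2 took it to an adjusted p of 0.0927 or 0.115. CHEK2 has pseudogene copies elsewhere in the genome, and how shared reads were assigned is not given in the sources used here. ATR, CHEK1 and TP53BP1, the stalled-fork kinase, its effector kinase and a break-site scaffold, passed in none of the 4 contrasts. Their log2 values in KO were -0.29, 0.07 and -0.17. ATR had its largest difference between Lipo and WT, 26.8 and 21.2 CPM against 37.6, 42.0 and 32.2 (log2 -0.64, adjusted p = 0.0563).

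**Figure D2:**
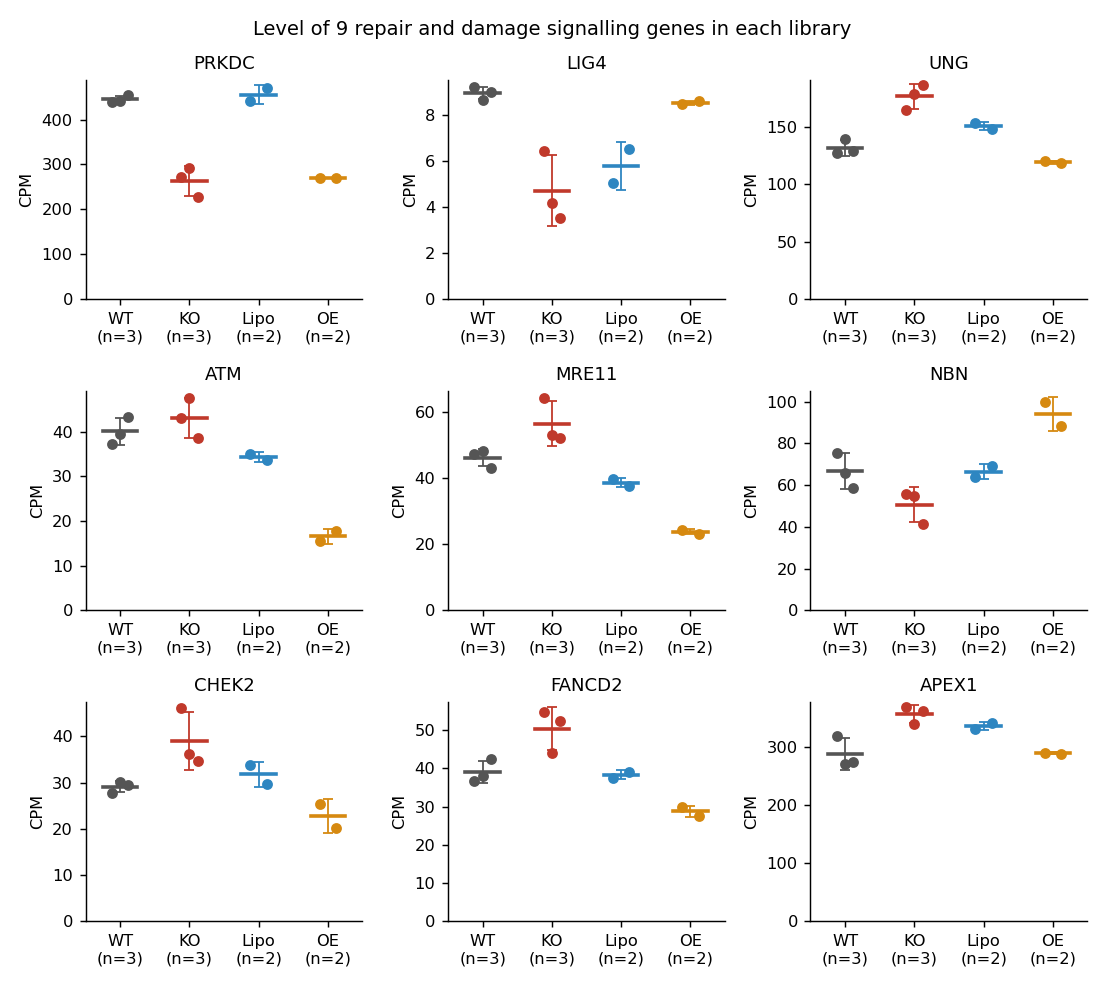
CPM of PRKDC and of the 8 members that passed in any contrast, by library (points), with the mean (line) and SD (bar) of each group. Each vertical axis starts at 0. KO and OE are both below their controls for PRKDC, whereas for ATM only the OE libraries, at 15.4 and 17.8 CPM, stand apart from the rest.

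End joining needs the Ku heterodimer of XRCC5 and XRCC6 to cap the end, DCLRE1C (Artemis) to trim it, and LIG4 with its partner XRCC4 to seal it. Of the 5 genes, LIG4 passed in KO, and none passed in OE. LIG4 (ENSG00000174405, chr13:108207439-108218368, minus strand) had the lowest level per exon length, 1.59 CPM per kb, and XRCC6 the highest, 185 CPM per kb. LIG4 stood at 9.22, 8.67 and 8.98 CPM in WT, 6.44, 4.18 and 3.51 in KO, 5.04 and 6.52 in Lipo, and 8.48 and 8.60 in OE. Every KO library was below every WT library, and so was each Lipo library, whose values overlapped those of KO. The fall from WT to KO was 1.90-fold (log2 -0.93, SE 0.23, edgeR adjusted p = 0.0142). Against WT and Lipo together it was -0.71 (adjusted p = 0.0805), and without KO 2 or KO 3 the adjusted p was 0.057 or 0.0521. The KO effect was below the OE effect by 1.49 (SE 0.36, adjusted p = 0.0104), except without Lipo 2 (adjusted p = 0.0731).

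XRCC6 had 710.4, 586 and 558 CPM in WT, 668, 646 and 554 in KO, 622 and 638 in Lipo, and 554 and 560.4 in OE. KO overlapped WT, and OE stood below Lipo by 0.18 on the log2 scale (adjusted p = 0.482). XRCC5, the other Ku subunit, was at 328 and 327 CPM in OE and 399 and 434 in Lipo (log2 -0.35, adjusted p = 0.0948). XRCC4 and DCLRE1C had log2 values of 0.13 and 0.16 in KO and of -0.24 and 0.61 in OE, with none passing.

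MRE11, RAD50 and NBN form the complex that first binds a broken end and starts its resection. Their transcripts differed in opposite ways: MRE11 was lower in OE than in Lipo, and NBN was higher there without passing the test. MRE11 (ENSG00000020922, chr11:94415578-94493908, minus strand), the nuclease, stood at 47.4, 48.1 and 43.2 CPM in WT, 64.4, 53.1 and 52.1 in KO, 39.7 and 37.7 in Lipo, and 24.3 and 23.2 in OE. KO was above WT and OE below Lipo in every library. The fall in OE was 1.63-fold (log2 -0.70, SE 0.16, edgeR adjusted p = 0.00893). With any 1 of Lipo 2, Lipo 3, OE 1 or OE 2 left out, the adjusted p was 0.083, 0.0581, 0.0793 or 0.0982. The KO value was 0.29 (adjusted p = 0.151), and the effects differed by 0.99 (SE 0.20, adjusted p = 0.00338).

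NBN (chr8:89933336-90003228, minus strand), the adaptor that recruits ATM, stood at 75.5, 65.8 and 58.4 CPM in WT, 55.9, 55.0 and 41.1 in KO, 63.9 and 69.1 in Lipo, and 99.7 and 88.3 in OE. KO was below WT and OE above Lipo with no overlap. The KO effect was below the OE effect by 0.89 (SE 0.23, adjusted p = 0.0145), while neither effect passed alone (log2 -0.39, adjusted p = 0.0896, and 0.50, adjusted p = 0.0776). Without Lipo 2, Lipo 3 or OE 1 the difference had an adjusted p of 0.0828, 0.0538 or 0.0909.

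RAD50, the tether of the complex, had the lowest level per exon length of all members, 0.13 CPM per kb against 5.63 for MRE11 and 10.9 for NBN. Its reads numbered 36, 28 and 26 in WT, 21, 35 and 22 in KO, 47 and 31 in Lipo, and 24 and 27 in OE. The KO range overlapped the WT range, and both OE libraries were below Lipo in reads. In GENCODE 29, 79.7% of RAD50 exon bases lie on the same strand in a second gene, ENSG00000283782, which had 0 reads in every library. The part of that overlap in the low level was not tested.

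The other homologous recombination members are BRCA1, BRCA2 and PALB2, which load the recombinase, RAD51C and RAD54L, which help it invade the sister chromatid, and the helicases BLM and WRN. None of the 7 passed in any contrast. PALB2 had the lowest log2 value in KO, -0.42 (adjusted p = 0.0726), with 18.4, 15.6 and 14.2 CPM against 22.2, 20.9 and 21.5 in WT. WRN had the highest, 0.36. Per exon length they ranged from 2.17 CPM per kb for BRCA2 to 10.7 for RAD54L.

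**Figure D3:**
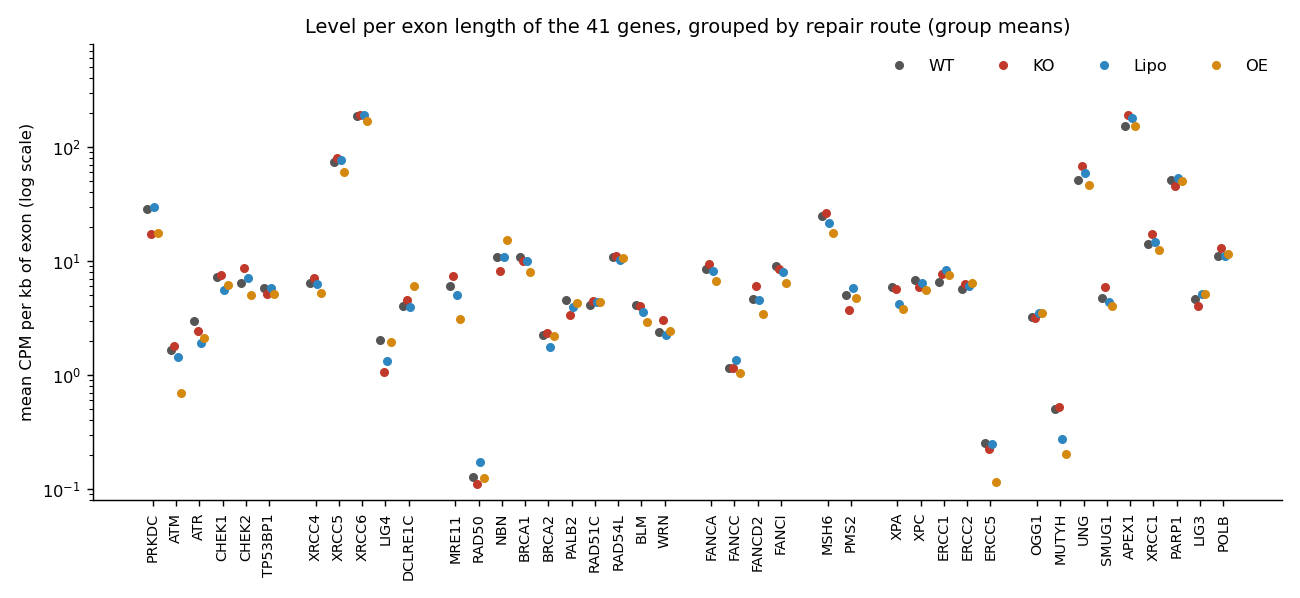
Mean CPM per kb of exon (vertical log axis) of each of the 41 genes in the 4 groups, by repair route from left to right. XRCC6 and APEX1 have the highest levels, 185 and 169 CPM per kb over all libraries, and RAD50 the lowest.

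In the Fanconi anaemia route, FANCA and FANCC belong to the core complex that attaches ubiquitin to FANCD2 and FANCI at a crosslink. All 4 genes had a negative log2 value in OE, from -0.41 to -0.30, and none passed in KO or OE. Of all 41 members, 29 had a negative value in OE, beside 8023 of the 15832 genes tested. FANCD2 (ENSG00000144554, chr3:10026414-10101930, plus strand) stood at 36.6, 38.1 and 42.3 CPM in WT, 54.7, 44.1 and 52.4 in KO, 37.5 and 39.1 in Lipo, and 29.8 and 27.6 in OE. Every KO library was above WT and both OE libraries were below Lipo. The 2 effects differed by 0.78 (SE 0.20, edgeR adjusted p = 0.0167). With Lipo 2, Lipo 3, OE 1 or OE 2 left out, the adjusted p was 0.0603, 0.0861, 0.0599 or 0.091. Its partner FANCI had a KO value of -0.09 and an OE value of -0.31 (adjusted p = 0.18).

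FANCA, the highest of the 4 per exon length (8.34 CPM per kb), was at 67.2, 92.9 and 88.2 CPM in WT, 84.3, 91.2 and 98.8 in KO, 83.1 and 76.3 in Lipo, and 60.2 and 69.3 in OE. FANCC, the lowest (1.17 CPM per kb), was at 14.2, 15.01 and 14.9 CPM in WT, 16.3, 15.5 and 12.4 in KO, 16.9 and 17.8 in Lipo, and 11.9 and 14.8 in OE. For both genes KO overlapped WT, and both OE libraries were below Lipo without passing the test.

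The mismatch repair members are MSH6, which takes part in recognising the mismatch, and PMS2, which takes part in nicking the new strand. Neither passed in any contrast. MSH6 was at 319, 258 and 246 CPM in WT, 349, 271 and 257 in KO, 243 and 233 in Lipo, and 192 and 196 in OE (log2 -0.29 in OE, adjusted p = 0.285). PMS2 was at 21.7, 17.9 and 20.2 CPM in WT, 16.9, 16.1 and 10.5 in KO, 23.9 and 21.6 in Lipo, and 17.9 and 19.4 in OE (log2 -0.46 in KO, adjusted p = 0.112). MSH6 in OE and PMS2 in KO stood below their controls in every library. PMS2 has near-identical pseudogene copies, so its counts are uncertain.

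None of the 5 nucleotide excision repair members passed. XPC senses the distortion, XPA verifies it, ERCC2 unwinds the DNA as a subunit of TFIIH, and ERCC5 and ERCC1 belong to the nucleases that cut on either side. Their log2 values ran from -0.19 to 0.23 in KO and from -1.11 to 0.09 in OE. ERCC1, the highest per exon length (7.45 CPM per kb), had 32.7, 35.4 and 41.5 CPM in WT, 37.1, 38.3 and 53.2 in KO, 45.5 and 47.2 in Lipo, and 43.4 and 41.2 in OE. ERCC5, the lowest (0.22 CPM per kb), had 1.47, 1.72 and 3.07 CPM in WT, 1.99, 1.95 and 1.60 in KO, 2.08 and 2.05 in Lipo, and 0.986 and 0.920 in OE. KO overlapped WT for both genes, and the ERCC5 value in OE (log2 -1.11, adjusted p = 0.116) rests on 20 reads in each OE library. Of ERCC5 exon bases, 63.2% are shared with the readthrough gene BIVM-ERCC5, which had 0 reads in every library.

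Base excision repair starts with a glycosylase that removes the damaged base. Among the glycosylases OGG1, MUTYH, UNG and SMUG1, only UNG, which removes uracil from DNA, passed in KO. UNG (ENSG00000076248, chr12:109097574-109110992, plus strand; upstream stretch shown above) stood at 127, 139 and 129 CPM in WT, 165, 179 and 186 in KO, 153 and 148 in Lipo, and 120.0 and 118 in OE. KO was above all other libraries, and OE below all others. UNG rose 1.34-fold in KO (log2 0.42, SE 0.11, edgeR adjusted p = 0.0162). In a fit of KO and WT alone the adjusted p was 0.0706, and without WT 3 it was 0.072. OE stood below Lipo by 0.34 (adjusted p = 0.108), and the effects differed by 0.76 (SE 0.17, adjusted p = 0.00622).

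APEX1, the endonuclease that cuts at the resulting baseless site (chr14:20455191-20457772, plus strand), had the highest level per exon length of this group, 169 CPM per kb. It stood at 319, 270.3 and 274 CPM in WT, 368, 339.6 and 362 in KO, 331 and 341 in Lipo, and 290.2 and 288 in OE. KO was above WT and OE below Lipo with no overlap, with log2 values of 0.31 (adjusted p = 0.0718) and -0.22 (adjusted p = 0.32). The difference of 0.53 (SE 0.17) was the closest to the threshold of the 8 that passed (edgeR adjusted p = 0.0449). With no low-count filter it did not pass. It did not pass without WT 2, WT 3 or any 1 of the Lipo and OE libraries, with adjusted p between 0.104 and 0.171.

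MUTYH, the glycosylase for adenine opposite oxidised guanine, had the lowest level per exon length of the group (0.41 CPM per kb), with 1.65, 1.79 and 2.50 CPM in WT, 1.32, 1.25 and 3.64 in KO, 1.21 and 0.957 in Lipo, and 0.592 and 1.01 in OE. KO 3 was the highest library, and the other KO libraries lay below WT. XRCC1, PARP1, LIG3 and POLB, the scaffold, break sensor, ligase and polymerase that finish the repair, passed in no contrast, nor did OGG1 and SMUG1. Their log2 values in KO were 0.29 for XRCC1, -0.19 for PARP1, -0.21 for LIG3, 0.25 for POLB, -0.02 for OGG1 and 0.32 for SMUG1. Of the 9 genes in this group, 8 had a negative value in OE, with a median of -0.13. A negative value in OE was also found for 29 of all 41 members and for 8023 of the 15832 genes tested.

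Across the 41 genes, 8 passed the test of KO effect against OE effect, or 19.5% beside 16.6% of all genes. The KO effect was the higher one for 6, ATM, CHEK2, MRE11, FANCD2, UNG and APEX1, beside 7.16% of all genes, and the lower one for LIG4 and NBN, beside 9.47%. The number was 3 without Lipo 2 and 5 without any 1 of Lipo 3, OE 1 or OE 2, beside 8.1% to 9.08% of all genes. ATM, MRE11 and UNG passed in each of 18 alternatives. Between Lipo and WT 0 members passed with edgeR, beside 3.7% of all genes (1.32% higher and 2.38% lower). An unadjusted edgeR p under 0.05 was found for 3 of the 41 members, beside 2962 of the 15832 genes tested. DESeq2 called 1 member, ATR. In edgeR, ATR also passed with unscaled library sizes, with no low-count filter and with a replicate block. It did so too without KO 1, without KO 3, and without WT 1 and KO 1 together. The KO and Lipo comparisons share the WT libraries.

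Of 23 cell cycle genes, 1 was higher and 5 were lower in OE by the test and 17 did not pass, or 26.1% called beside 12.3% of all genes. Their summed level was 3682 and 3654 CPM in OE against 4502 and 4461 in Lipo. In KO it was between 4393 and 4805 CPM and in WT between 4397 and 4722. Its part in the members' values was not tested. Transcript length moved with the KO comparison and, less, with the others. In KO the median log2 fold change over all tested genes was 0.12 in the shortest, 0.0047 in the intermediate and -0.09 in the longest genes, in 3 equal classes of exon length. The same order held in Lipo against WT (0.065, -0.014 and -0.073) and in OE against Lipo (0.022, 0.014 and -0.049). Of the 41 members, 24 are among the longest. For these 24 the median in KO was -0.0041. The part of length was not tested.

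Neighbours of PRKDC were also lower in KO. PRKDC starts 2 bases from MCM4, a subunit of the replicative helicase that is read in the opposite direction. MCM4 stood at 198, 198 and 155 CPM in KO against 313, 287 and 272 in WT, and at 246 and 252 in OE against 287 and 289 in Lipo. KO did not overlap WT, and the fall was 1.58-fold (log2 -0.66, SE 0.12, edgeR adjusted p = 0.00186). In OE the value was -0.21 (adjusted p = 0.395), and the difference between the effects did not pass (-0.45, adjusted p = 0.113). SPIDR, a scaffold protein of homologous recombination that starts 700 kb away, was at 72.3, 67.3 and 61.3 CPM in KO against 97.3, 109 and 113 in WT, and at 78.3 and 73.9 in OE against 114 and 109.9 in Lipo. It fell in both, by 0.67 in KO (adjusted p = 0.00141) and by 0.55 in OE (adjusted p = 0.0186), both on the log2 scale.

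Of 6 tested genes within 1 Mb of PRKDC, 4 were lower and 1 was higher in KO, with a median log2 fold change of -0.64, beside 7.45% of all genes called lower. UBE2V2 (log2 -0.61, adjusted p = 0.0148) and SNAI2 (-2.64, adjusted p = 7.44e-05) also fell, CEBPD (-0.22) did not pass, and the pseudogene RPL10AP2 was higher. In OE only SPIDR passed. The 526 tested genes of chromosome 8 had a median of 0.11 in KO, and the other members on it, NBN, WRN and POLB, had -0.39, 0.36 and 0.25. LIG4 also has a close neighbour, ABHD13, which starts 11 bases away and stood at -0.46 in KO without passing (adjusted p = 0.242). The tested neighbours of XRCC6, BRCA1, PALB2, RAD51C, PMS2 and APEX1 (DESI1, NBR1, DCTN5, TEX14, AIMP2 and OSGEP) passed in neither KO nor OE.

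**Figure D4:**
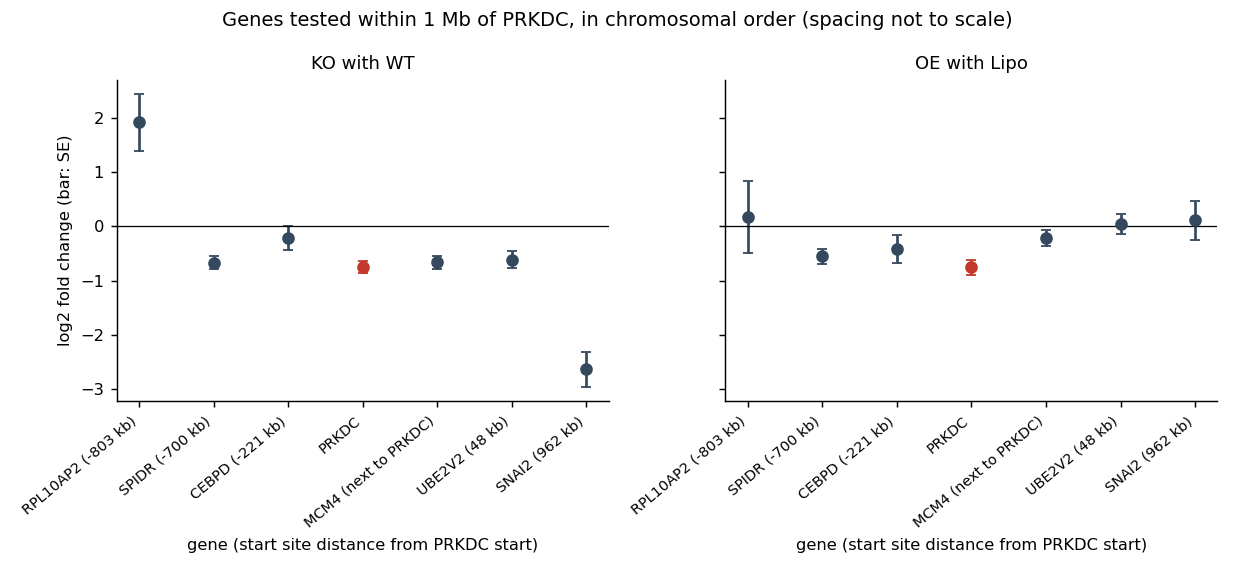
Log2 fold change (vertical axis, bar: SE) of PRKDC (red) and the 6 tested genes whose position is within 1 Mb of it, in chromosomal order with the distance between start sites. In KO, SPIDR, MCM4 and UBE2V2 stand between -0.67 and -0.61 and PRKDC at -0.75, and in OE MCM4 and UBE2V2 stand at -0.21 and 0.04.

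Another 105 repair and damage signalling genes were listed by the same routes, and 102 had enough reads to be tested. In KO, 3 were higher and 4 lower, which is 6.86% beside 12.6% of all genes. MBD4, a glycosylase for mismatched thymine and uracil, rose from 86.3, 61.0 and 64.5 CPM in WT to 121, 104 and 103 in KO (log2 0.63, SE 0.14, edgeR adjusted p = 0.00746). FANCL, the ubiquitin ligase of the Fanconi core, rose by 0.55 (adjusted p = 0.0205) and RPA2, a subunit of the single-strand binding protein, by 0.40 (adjusted p = 0.0446). The 4 that fell were MPG, the alkyladenine glycosylase (log2 -0.62), ERCC4, the partner of ERCC1 (-0.68), the helicase RECQL4 (-0.73) and CLSPN, the adaptor of ATR signalling to CHEK1 (-0.50). Their edgeR adjusted p lay between 0.0176 and 0.0419. CLSPN and RPA2 each failed to pass in 11 of 21 alternatives and RECQL4 in 10. For MBD4, FANCL, MPG and ERCC4 the number was from 1 to 4. RECQL4 overlapped between the groups, with 37.4 CPM in WT 1 and 43.3 in KO 3. The count of 7 became 0 without WT 2, 2 without WT 3, 3 without KO 3, 11 without KO 1, 13 without WT 1 and KO 1, and 4 without any 1 of the Lipo or OE libraries. Over the same settings the share of all genes called ran from 7.16% to 18.6%.

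In OE, 1 of the 102 was higher and 3 were lower, or 3.92% beside 12.3% of all genes. TIPIN, a fork protection factor, rose by 0.61 (adjusted p = 0.0427), POLH, a translesion polymerase, fell by 0.72 (adjusted p = 0.00932), and DNA2, a resection nuclease, fell by 0.84 (adjusted p = 0.026), all on the log2 scale. MDC1, a break-site adaptor, also passed as lower (log2 -3.10, adjusted p = 0.0108), but its level was high in Lipo 2 and 3 only, at 5.54 and 2.28 CPM, against 0.49 and 0.41 in OE, 0.30 to 0.88 in WT and 0.52 to 1.95 in KO. Without Lipo 2 or OE 1 the count of 4 became 0, without Lipo 3 or OE 2 it was 1, and without WT 1, KO 1 or KO 3 it was 9, 7 or 13, and 21 without WT 1 and KO 1, while the share of all genes ran from 3.97% to 22.2%. Between Lipo and WT, MDC1 was higher and XRCC2 and FANCL were lower, which is 2.94% beside 3.7%. That count of 3 became 0 without Lipo 2, 1 without Lipo 3, WT 2 or WT 3, 5 without KO 1, and 8 without KO 3 or without WT 1 and KO 1, while the share of all genes ran from 0.201% to 7.39%.

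On the difference between the effects, 9 of the 102 passed, or 8.82% beside 16.6% of all genes. The KO effect was the higher one for MBD4 (1.17, adjusted p = 0.00208), POLH (0.89, adjusted p = 0.00828), TDP1 (0.81), FANCL (0.76), WEE1 (0.77), ABRAXAS1 (1.24) and MDC1, and the lower one for CLSPN (-0.95, adjusted p = 0.0131) and ERCC6 (-0.91). TDG, the glycosylase that removes the oxidised bases TET enzymes make, was tested and passed in none of the 4 contrasts, with a log2 value of 0.32 in OE.

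How reads in overlapping genes were assigned, and whether strand was used, is not given in the sources used here. Without strand, reads of a gene and of one read in the opposite direction cannot be told apart. In GENCODE 29 a single gene on the other strand covers 28.7% of the exon bases of TP53BP1, 25.1% of RAD54L, 23.6% of FANCA, 23.8% of XPC, 28.6% of ERCC1, 24.96% of OGG1 and 29.1% of LIG3. None of these members passed in any contrast. For ATM, CHEK2, MRE11, FANCD2 and APEX1 the largest such share was between 0.60% and 6.70%, and no such overlap was found for PRKDC, LIG4, NBN or UNG.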

How the data were processed

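The authors deposited 1 table of raw read counts per gene for the whole series, as whole numbers. Per the submitters' processing notes, HISAT2 2.1.0, FastQC, featureCounts, edgeR and GRCh38 were used, with no role or order given. Per the labels' protocols, libraries were made from 1 µg of total RNA with a stranded low-input kit. Of 12 sample columns, 2 could be assigned to no sample and were left out. Of 62710 entries 1 carried no values.

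Counts were fitted with edgeR 4.0.16 in R 4.3.3: filterByExpr on the 4 groups left 15832 genes, and after TMM scaling 1 robust quasi-likelihood fit took in all 10 libraries. Tests were two-sided, with Benjamini-Hochberg adjustment over all genes and a threshold of 0.05. KO and Lipo were compared with WT, OE with Lipo, and the KO effect with the OE effect. The script was tested on simulated data. Positions, exon lengths (union of exons) and overlaps came from GENCODE 29, and promoter windows from RefSeq.

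The members, gene lists, tests and alternatives were chosen with earlier results of these data known. Library values are given for PRKDC, for members past the threshold in any contrast and for the highest and lowest member per exon length of each route. Of each list of other genes, which follow the repair routes, up to 3 past the threshold per contrast are named, along with tested genes that start within 1000 bases of a member in the opposite direction. COL1A1, LUM, SFTPB, CDH1, KRT7, PALB2, ATR, XRCC5, SPIDR, SNAI2, UBE2V2 and TDG were singled out after their values were seen. As alternatives, DESeq2 1.42.0, RLE scaling and unscaled library sizes were tried, with no or a stricter low-count filter (1 CPM in 3 libraries and 100 reads in all), mitochondrial and ribosomal RNA genes left out, fits of only the groups compared, a replicate block, other control libraries and each library left out. Leaving out WT 1 and KO 1 together was added after the data had been seen.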

Additional observations from a re-analysis of the deposited data

How the results depend on the processing

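No call reversed. The log2 value of PRKDC between Lipo and WT ran from -0.02 to 0.08 and the difference between its effects from -0.07 to 0.10, so both crossed 0. The share of all genes called under the same setting is given in brackets. Members past the threshold in KO (3, 12.6%) numbered 9 with a replicate block, both in the fit of KO and WT (23%) and in that of all 10 libraries (18.2%), 7 without WT 1 and KO 1 (18.6%), and from 2 to 5 with each library left out (7.16% to 14.6%). The other repair genes in KO (7) numbered 2 with only the groups compared (8.3%), 17 and 14 with the replicate block in the same order, 13 without WT 1 and KO 1, and from 0 to 11 with each library left out. In OE the members (3, 12.3%) numbered 17 with only the groups compared (39%), 6 with the replicate block (16.9%), 6 with WT and Lipo together as control (17.2%), 9 with WT as control (25%), 11 without WT 1 and KO 1 (22.2%), and from 2 to 6 with each library left out (3.97% to 17%). The other genes in OE (4) numbered 8 with no low-count filter (7.67%), 32 with only the groups compared, 14 with the replicate block, 11 and 23 with those controls, 21 without WT 1 and KO 1, and from 0 to 13 with each library left out. Between Lipo and WT the members (0, 3.7%) numbered 1 with library size alone (3.9%), 1 with DESeq2 (6.92%), 1 with no low-count filter (3.92%), 6 and 1 with the replicate block (24.8% and 5.37%), 2 without WT 1 and KO 1 (7.39%), and 0 to 1 with each library left out (0.201% to 6.24%). The other genes there (3) numbered 6 with DESeq2, with no filter and with only the groups compared (5.05%), 36 and 5 with the replicate block, 8 without WT 1 and KO 1, and from 0 to 8 with each library left out. The members on the difference between effects (8, 16.6%) numbered from 3 to 9 with each library left out (8.1% to 19.3%). The cause of these shifts was not tested. The main fit did not use the replicate numbers as pairs, and whether same-numbered libraries belong together is not known here. Deviations of same-numbered WT and KO libraries correlated at 0.33, 0.058 and 0.18. WT 1 and WT 3 correlated best with the KO library of their own number, and WT 2 with KO 3 (0.092). Same-numbered WT and Lipo libraries correlated at -0.0073 and -0.057. OE and Lipo share 1 number, so their block was fitted over all 10 libraries. Few reads limit RAD50, ERCC5 and MUTYH, whose log2 fold changes in KO have a standard error of 0.37, 0.34 and 0.43.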

Other observations

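Among 15 tested targets of p53, the factor that damage kinases activate, 3 were higher and 0 lower in Lipo than in WT, or 20% beside 3.7% of all genes. In OE against Lipo 3 were higher (CDKN1A, FAS and GADD45A) and 1 lower (ZMAT3), or 26.7% beside 12.3%. In KO 0 passed with edgeR. An unadjusted edgeR p under 0.05 was found for 3 of the 15 targets, beside 4204 of the 15832 genes tested. The list's median log2 fold change was -0.05 in Lipo, -0.0092 in OE and -0.11 in KO. CDKN1A, the cyclin kinase inhibitor of the damage checkpoint, stood at 69.7, 56.2 and 60.4 CPM in WT, 38.3, 64.3 and 50.7 in KO, 99.7 and 123 in Lipo, and 192 and 178 in OE. It was higher in Lipo than in WT (log2 0.84, SE 0.18, edgeR adjusted p = 0.0185) and higher again in OE than in Lipo (0.73, SE 0.20, adjusted p = 0.0278), while KO overlapped WT. GDF15, a stress-induced growth factor, had 6.36, 13.6 and 14.4 CPM in WT against 86.0 and 80.5 in Lipo (log2 2.86, adjusted p = 0.000631).

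The cell cycle genes that fell in OE were TOP2A, BUB1, CCNB2, CDK1 and MCM6, and CCNE1 rose. TOP2A, the topoisomerase of dividing cells, had 329 and 328 CPM in OE against 565 and 598 in Lipo (log2 -0.82, adjusted p = 0.00206). In KO, MCM4 and TYMS fell and CCNB1 and CCNE2 rose, or 17.4% of the 23 genes beside 12.6% of all genes. On the difference between the effects 7 of the 23 passed, or 30.4% beside 16.6% of all genes. The KO effect was the higher one for 6 and the lower one for 1.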
